A study of Mus musculus and Rattus norvegicus with 32 samples.

Results

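Catalase, the superoxide dismutases, the glutathione peroxidases and the peroxiredoxins were followed in liver RNA of male B6C3F1 mice and male SD rats after trichloroethylene (TCE). The genes are Cat, Sod1, Sod2, Gpx1, Gpx4, Prdx1 and Prdx2. Every probe set annotated with exactly 1 of these symbols was taken, which gave 22 of 21162 probe sets: 9 of 12422 on the mouse array and 13 of 8740 on the rat array. All 7 genes were covered in rat and 6 in mouse, since both mouse probe sets that hold Prdx1 also carry a second symbol and were left out. In rat, 1 further probe set with several symbols, among them that of Gpx4, was left out for the same reason.

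The series set out to compare how the livers of both species respond to TCE, a chlorinated solvent. Its 8 groups of 4 arrays were TCE and corn oil in each species and schedule. TCE was given at 1500 mg per kg body weight in corn oil by gavage, either once or once a day for 14 days. The age given is 8 weeks for the single-dose samples and 10 weeks for the 14-day samples. The oil groups received corn oil alone on the same schedule, and every liver was collected 18 h after dosing ended. Whether each sample is its own animal is not stated in the labels, and p-values therefore rest on a spread between samples that may be technical.

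These enzymes remove reactive oxygen in sequence. Superoxide dismutases turn superoxide into hydrogen peroxide, Sod1 in the cytosol and Sod2 in the mitochondrial matrix. Catalase breaks down hydrogen peroxide inside the peroxisome, where fatty acid oxidation produces it, while glutathione peroxidases and peroxiredoxins reduce peroxides with electrons from glutathione or thioredoxin. In rodent liver, agonists of the nuclear receptor PPAR alpha, among them TCE's metabolite trichloroacetic acid, enlarge the peroxisome compartment and raise the genes of peroxisomal fatty acid oxidation, so the peroxide-forming and the peroxide-removing side can be set beside each other.

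The stretches upstream of the transcription starts of Cat and Gpx1 are shown because the mouse results below turn on these 2 genes. They are RefSeq sequences of build GRCm38.p6, 250 bases each, read 5′ to 3′ and ending just before the start site. The Cat stretch lies at chr2:103485154-103485403 on the minus strand and that of Gpx1 at chr9:108338830-108339079 on the plus strand. Capitals mark AGGTCA, the hexamer that PPAR alpha and other nuclear receptors bind as part of a pair.
Cat: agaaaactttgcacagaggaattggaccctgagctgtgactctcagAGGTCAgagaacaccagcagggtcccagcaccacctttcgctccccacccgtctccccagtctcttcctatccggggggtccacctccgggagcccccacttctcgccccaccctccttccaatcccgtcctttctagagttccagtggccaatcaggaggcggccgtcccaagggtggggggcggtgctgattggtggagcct
Gpx1: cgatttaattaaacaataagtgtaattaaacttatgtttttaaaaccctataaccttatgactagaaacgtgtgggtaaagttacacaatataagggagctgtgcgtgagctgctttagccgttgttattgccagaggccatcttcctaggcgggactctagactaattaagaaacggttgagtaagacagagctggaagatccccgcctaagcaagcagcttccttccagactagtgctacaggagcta

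On both strands, the Cat stretch held 1 AGGTCA and 1 GGGCGG, the core of the GC box, and no TGACNNNGC, the core of the antioxidant response element, and its AGGTCA overlapped neither. The Gpx1 stretch held none of the 3. AGGTCA was present in 14.0% of 32851 mouse stretches of the same length, TGACNNNGC in 10.2% and GGGCGG in 32.7%. Of the peroxisomal genes used below for comparison, the stretches of Ehhadh, Pex11a and Acaa1b held no AGGTCA either, so these windows did not separate the induced genes from the others. A match is a string of letters, not a binding site.

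The values were deposited as ratios, with the matching oil group's median set to 1, and all values and changes below are on the log2 scale of those ratios. They carry no signal level, so one gene's level cannot be set against another's, and precision is limited by the 4 arrays of a group. Within groups, the SD of a probe set had a median of 0.42 in mouse and 0.46 in rat. A control measure of RNA integrity differed between arrays. The 3′ minus 5′ log2 difference of the Gapdh control probe sets, which grows as RNA breaks down, was above 1 on 10 arrays, of which 9 were TCE arrays. Both probe sets are ratios to the oil median, so this difference is relative to the matching oil group and gives no absolute RNA integrity. In mice it averaged 1.51 ± 0.95 on TCE arrays and -0.03 ± 0.17 on oil arrays after 1 dose (SD, n = 4 each). After 14 days the mouse means were 1.04 ± 0.94 on TCE arrays and 0.25 ± 0.81 on oil arrays. In rats it averaged 0.26 ± 1.14 on TCE arrays and -0.04 ± 0.18 on oil arrays after 1 dose, and 1.20 ± 0.78 on TCE arrays and 0.12 ± 0.33 on oil arrays after 14 days. The same difference for beta-actin averaged 0.74 ± 0.43 on mouse TCE arrays and -0.02 ± 0.12 on mouse oil arrays after 1 dose. It did not follow that of Gapdh on every array. The fourth rat TCE array after 14 days had 1.60 for Gapdh and -0.12 for beta-actin.

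Hepatocyte markers such as Alb, Ttr and Apob were compared between TCE and oil arrays, 7 in mouse and 8 in rat. As ratios to the oil median, these markers cannot show which tissue was read. Their mean log2 ratio in mice after 14 days lay between -0.67 and -0.56 on TCE arrays and between -0.19 and 0.18 on oil arrays (exact two-sided permutation p = 0.0286, the smallest that 4 against 4 allows). After 1 dose it averaged -0.34 ± 0.08 on mouse TCE arrays and -0.01 ± 0.14 on mouse oil arrays. The changes of single mouse hepatocyte markers after 14 days ran from -1.72 to -0.26. Their median was -0.33, beside -0.15 for all mouse probe sets. Of the 7 mouse markers, 2 fell after 14 days (Apob and Tat), when 8.48% of all mouse probe sets were called lower, and 1 after 1 dose (Apob), when 4.14% were, and in rat none of 8 passed at either schedule. Of markers of other cells in mice after 14 days, 2 of 12 fell for macrophages, 2 of 9 for endothelium, 1 of 13 for lymphocytes and neutrophils and 1 of 9 for stellate cells, of which 1 other rose, and 0 of 9 passed for exocrine pancreas. Macrophage markers in mice averaged -0.31 ± 0.04 on TCE arrays and -0.01 ± 0.18 on oil arrays after 1 dose (exact permutation p = 0.0286). After 14 days they averaged -0.66 ± 0.18 on TCE arrays and -0.13 ± 0.31 on oil arrays (exact permutation p = 0.0571). In rats after 14 days 1 of 5 endothelial markers fell (Pecam1) and 1 of 9 stellate cell markers rose (Sparc). Of all rat probe sets, 2.81% were called then in either direction. Since ratios hold no level, whether such a marker was near 0 cannot be read. In whole liver, fewer cells of a type and less RNA per cell cannot be told apart, and the part of this shift in the values below was not tested.

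Genes of peroxisomal fatty acid oxidation and related PPAR alpha targets rose in mice at both schedules and in rats after 14 days. With limma's moderated test and Benjamini-Hochberg adjustment over all probe sets, 10 of 15 mouse genes rose after 1 dose, when 4.16% of all mouse probe sets were called higher, and 9 of 15 after 14 days, when 2.24% were. In rat, 0 of 12 passed after 1 dose, when 1.21% of all rat probe sets were called higher, and 5 of 12 rose after 14 days, when 2.16% were. None fell in any of these 4 comparisons. In this and the other gene lists, each gene was read from its probe set of smallest within-group SD. The shares cover all probe sets, so counts and shares are not like for like. The lists were also chosen with earlier results of these data known. In mice after 1 dose the rises were led by Cyp4a14 (4.46 ± 0.58, SE), a fatty acid omega-hydroxylase, and by Acot1 (2.38 ± 0.23), an acyl-CoA thioesterase. In rats after 14 days they were led by the thiolase gene Acaa1b (3.37 ± 0.30) and by Pex11a (1.88 ± 0.20), which promotes peroxisome division. Leaving out the arrays of Gapdh difference above 1 kept only the second mouse TCE array after 1 dose and only the first after 14 days. In rats after 14 days it kept the first and second TCE arrays. The rat counts were then 0 and 2 of 12 after 1 dose and 14 days. With quantile normalization the counts were 4 and 3 of 15 in mouse and 0 and 1 of 12 in rat, and with array weights 3 of 12 rat genes passed after 1 dose. The rat count after 14 days fell to 3 without the second TCE array, without the first oil array or without the fourth oil array. With the arrays of high Gapdh difference left out, the list medians were 0.89 and 0.89 in mouse, each from only 1 TCE array, and 0.25 and 1.11 in rat. With all arrays they were 0.95, 0.67, 0.32 and 1.21.

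**Figure D1:**
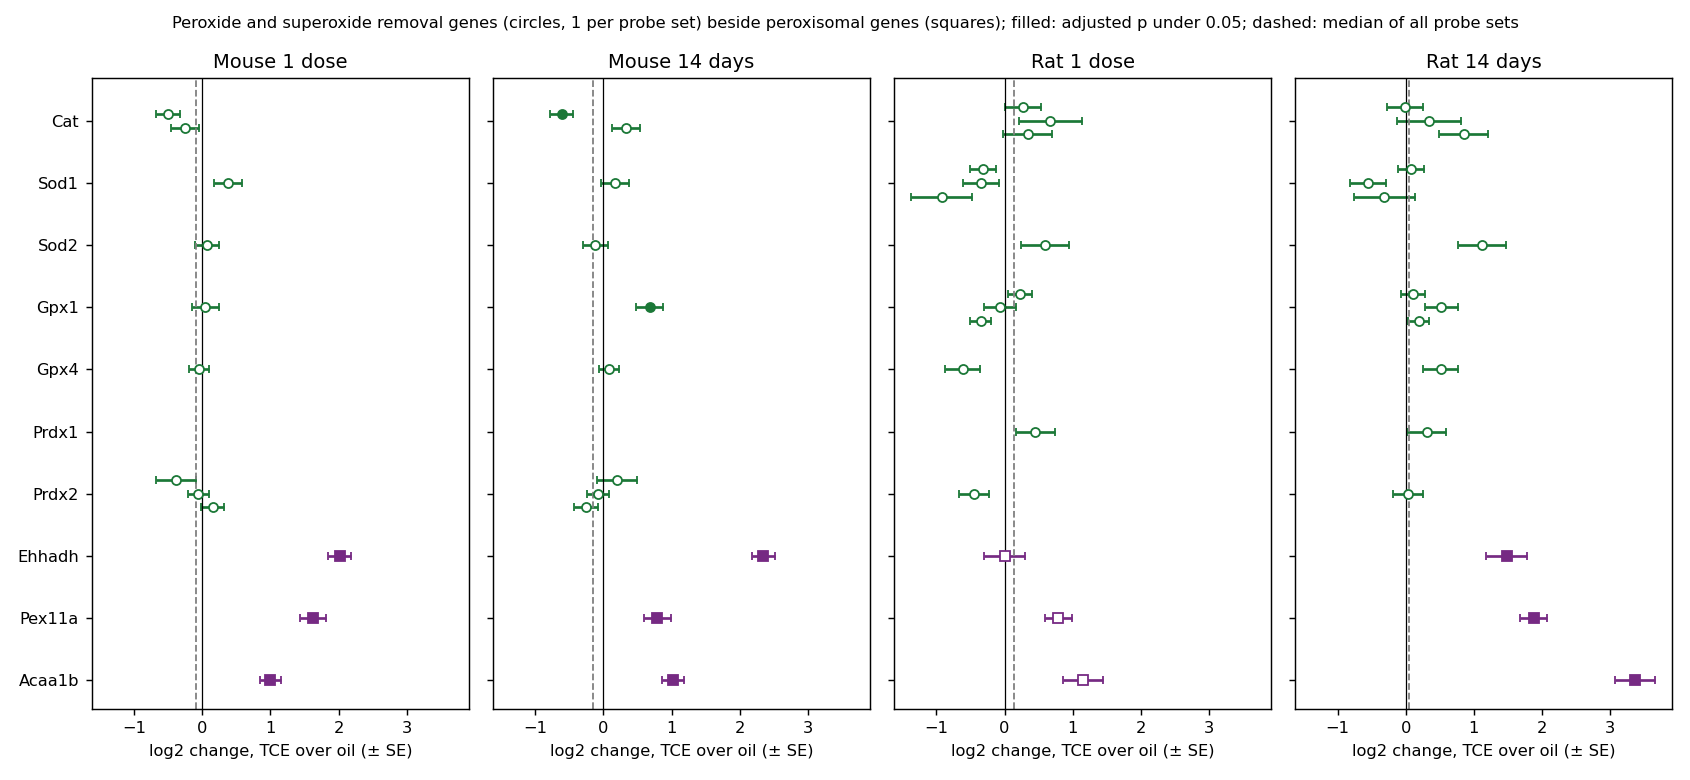
Log2 change of TCE over oil with its standard error, for the peroxide and superoxide removal genes (circles, 1 per probe set) and 3 peroxisomal genes (squares), in mice and rats after 1 dose and 14 days. Filled symbols passed an adjusted p of 0.05 and dashed lines mark the median of all probe sets. In mice after 14 days the filled circles are Cat at -0.61 and Gpx1 at 0.68, while Ehhadh stands at 2.35.

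Of the 9 mouse probe sets, 0 passed limma's test after 1 dose, when 8.3% of all mouse probe sets did, and 2 passed after 14 days, when 10.7% did. The 1 lower call (Cat) stands beside 8.48% called lower and the 1 higher call (Gpx1) beside 2.24% called higher. Non-overlapping groups were found for 0 of 9 after 1 dose, against 17.6% of all probe sets. After 14 days there was 1 above and 1 below, against 4.6% and 12.4%. Counts this small are given beside those shares as a description. At an unadjusted p under 0.05 the mouse counts were 1 after 1 dose and 2 after 14 days. The share of all mouse probe sets at that level was not computed, so these counts have no background to be read against. The median change of the members was -0.05 and 0.08 after 1 dose and 14 days, beside -0.09 and -0.15 for all probe sets.

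Catalase was not called higher in mouse liver on either of its probe sets. The probe set with the smaller within-group spread, 160479_at, read -0.82, -0.69, -0.25 and -0.57 on the 4 TCE arrays after 14 days, against 0.30, 0.10, -0.11 and -0.17 on the oil arrays. All 4 TCE arrays lay below all 4 oil arrays. Cat on this probe set fell by 0.61 ± 0.17 (SE, fold 0.654; 95% interval -0.98 to -0.25; limma adjusted p = 0.0360). The median change over all 12422 probe sets was -0.15, and with each array centred on its median the change was -0.45 (adjusted p = 0.105). With quantile normalization it was -0.30 (adjusted p = 0.667). Of 8 fits that each left out 1 array of the comparison, 2 kept the call, those without the third TCE array and without the fourth oil array. The change over the 8 fits lay between -0.72 and -0.52 and the adjusted p between 0.0239 and 0.0908.

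After 1 dose the same probe set read -0.63, -0.67, -0.22 and -0.58 on TCE arrays, against -0.25, 0.10, -0.11 and 0.16 on oil arrays. The third TCE array overlapped the lowest oil array. The change was -0.50 ± 0.17 and did not pass (limma adjusted p = 0.0862), and the difference between the schedules' changes was -0.11 ± 0.24 (95% interval -0.63 to 0.41).

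The second mouse Cat probe set, 161877_f_at, gave another picture after 14 days. It read 0.56, 0.15, 0.45 and 0.44 on TCE arrays, against 0.08, -0.15, 0.42 and -0.09 on oil arrays, and the groups overlapped. Its change was 0.33 ± 0.21 after 14 days (limma adjusted p = 0.317) and -0.25 ± 0.21 after 1 dose (adjusted p = 0.497). The difference between the 2 probe sets within each array averaged -0.98 ± 0.29 on TCE arrays and -0.04 ± 0.36 on oil arrays after 14 days (SD, n = 4 each). That gap of -0.95 had an exact permutation p of 0.0286, or 0.0400 adjusted over the 14 within-array differences tested here. Most of those 14 differences involve the peroxisomal genes below, and the adjusted value depends on them. The gap was -0.66 with quantile normalization (p = 0.114), and after 1 dose it was -0.25 (exact p = 0.457). The sources used here do not say which parts of the transcript the probe sets read, and the fall of Cat after 14 days therefore holds for 1 of its 2 probe sets.

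**Figure D2:**
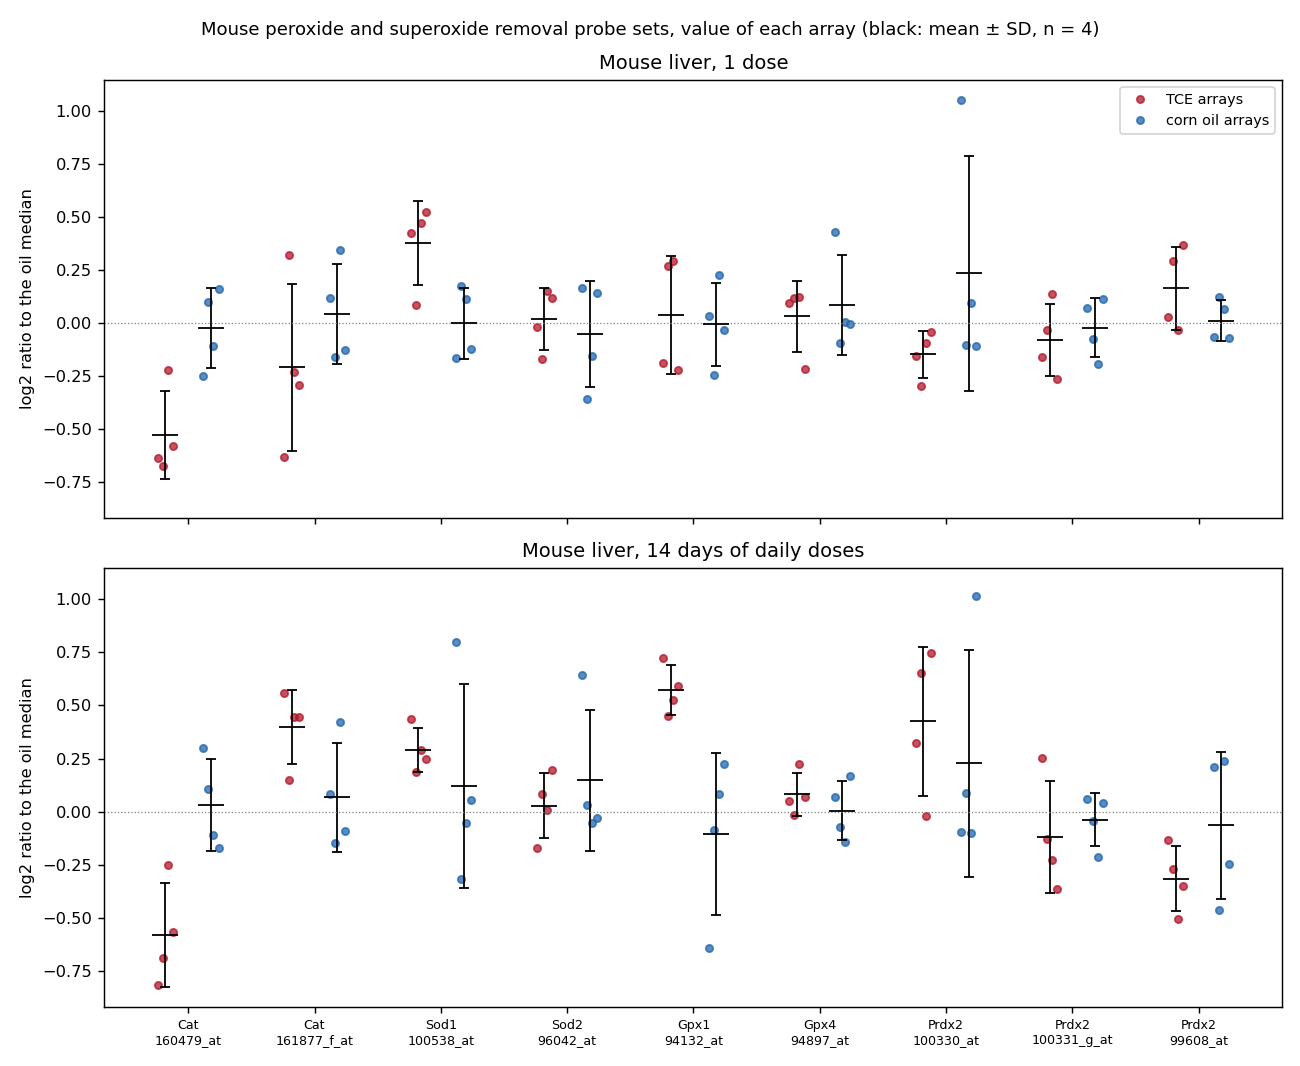
Log2 ratio of every array for the 9 mouse probe sets, after 1 dose (top) and 14 days (bottom), with TCE arrays in red left of oil arrays in blue and black bars for mean ± SD (n = 4). After 14 days the TCE arrays lie wholly below the oil arrays for Cat 160479_at and wholly above them for Gpx1 94132_at, and overlap them for the other 7 probe sets.

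On the same mouse arrays, the log2 ratios of 3 peroxisomal genes changed by more than that of Cat 160479_at. Ehhadh, the bifunctional enzyme of peroxisomal beta-oxidation, minus Cat 160479_at averaged 2.93 ± 0.16 on mouse TCE arrays and -0.03 ± 0.15 on oil arrays after 14 days, a gap of 2.96. After 1 dose the means were 2.58 ± 0.18 on TCE arrays and 0.06 ± 0.15 on oil arrays, a gap of 2.52. For Pex11a minus Cat the gap was 2.13 after 1 dose and 1.41 after 14 days, and for Acaa1b minus Cat it was 1.5 and 1.63. All 6 mouse gaps had an exact permutation p of 0.0286 (0.0400 adjusted over 14 differences). These 3 genes were chosen with earlier results of these data known. The p-values therefore describe these gaps and do not test peroxisomal genes as a group. After 14 days the changes of the 15 mouse genes counted above ran from -0.77 to 5.22, and gaps for the others were not computed. Against the other mouse Cat probe set, the 14-day gaps were 2.01 for Ehhadh and 0.69 for Acaa1b (exact p = 0.0286 each) and 0.46 for Pex11a (exact p = 0.229).

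In rat the same within-array differences passed in the 14-day values. Acaa1b minus Cat M11670_at averaged 3.46 ± 0.62 on TCE arrays and 0.09 ± 0.90 on oil arrays after 14 days (gap 3.37), and the gaps for Ehhadh and Pex11a were 1.49 and 1.88, each with an exact permutation p of 0.0286 (0.0400 adjusted over 14 differences). After 1 dose the rat gaps were 0.88 for Acaa1b (exact p = 0.0571), 0.52 for Pex11a (exact p = 0.0857) and -0.27 for Ehhadh (exact p = 0.400). The difference between schedules was not tested for these gaps. Against the other rat Cat probe sets, the 14-day Ehhadh gap was 1.14 (rc_AA926149_at, exact p = 0.0857) and 0.63 (rc_AA926149_g_at, exact p = 0.0571), and the Pex11a gap 1.54 and 1.03 (exact p = 0.0857 each). With quantile normalization the Pex11a gap was 1.36 (exact p = 0.114).

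Glutathione peroxidase 1, the selenium enzyme that reduces hydrogen peroxide in the cytosol and mitochondria, was the member that rose in mouse liver. Gpx1 94132_at read 0.72, 0.45, 0.53 and 0.59 on TCE arrays after 14 days, against -0.64, -0.09, 0.08 and 0.23 on oil arrays. Every TCE array lay above every oil array, and the TCE arrays were close together (SD 0.12) beside the oil arrays (SD 0.38). Gpx1 rose by 0.68 ± 0.20 (SE, fold 1.60; 95% interval 0.26 to 1.10; limma adjusted p = 0.0417). With quantile normalization it was 0.61 (adjusted p = 0.389), and with only the arrays compared in the fit the adjusted p was 0.112. The first oil array was the lowest of the group and also the only mouse or rat oil array with a Gapdh difference above 1. Without it the change was 0.50 (adjusted p = 0.0855). Of the 8 fits that each left out 1 array, the call held in the 1 without the fourth oil array, and the adjusted p lay between 0.0414 and 0.0858.

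After 1 dose Gpx1 read -0.19, 0.27, 0.29 and -0.22 on TCE arrays, against 0.03, -0.25, 0.23 and -0.04 on oil arrays. The groups overlapped throughout, and the change was 0.04 ± 0.20 (limma adjusted p = 0.928). The difference between the schedules' changes was 0.64 ± 0.28 (95% interval 0.04 to 1.23), and its adjusted p of 0.233 did not pass. So the data do not show that the Gpx1 change differed between 1 and 14 doses.

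Gpx4, the glutathione peroxidase that reduces lipid peroxides in membranes, stayed near the oil median in mouse. Its TCE arrays ranged from -0.22 to 0.12 after 1 dose, against -0.10 to 0.43 on oil arrays, and from -0.01 to 0.22 after 14 days, against -0.14 to 0.17. The changes were -0.05 ± 0.15 and 0.08 ± 0.15, with 95% intervals of -0.37 to 0.26 and -0.24 to 0.39.

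The dismutases did not pass in mouse. Sod1, the copper and zinc enzyme of the cytosol, read 0.43, 0.09, 0.47 and 0.53 on TCE arrays after 1 dose, against -0.17, 0.17, 0.11 and -0.12 on oil arrays. Of these TCE arrays, 3 lay above all oil arrays, and the change was 0.38 ± 0.21 (95% interval -0.06 to 0.82; limma adjusted p = 0.285). After 14 days it was 0.17 ± 0.21, with 1 oil array at 0.80 above all TCE arrays. Sod2, the manganese enzyme of mitochondria, changed by 0.07 ± 0.18 after 1 dose and -0.12 ± 0.18 after 14 days, with 95% intervals of -0.32 to 0.46 and -0.51 to 0.27.

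Peroxiredoxin 2, a cytosolic peroxidase abundant in red cells, had 3 mouse probe sets that did not share a direction. Their changes were -0.38 ± 0.29 (100330_at), -0.06 ± 0.16 (100331_g_at) and 0.15 ± 0.17 (99608_at) after 1 dose, and 0.20 ± 0.29, -0.08 ± 0.16 and -0.25 ± 0.17 in the same order after 14 days. All TCE and oil groups overlapped. On 100330_at the first oil array after 1 dose read 1.05, above the other oil arrays, and without it the change was -0.11. Red cell markers, 5 in mouse, averaged -0.52 ± 0.26 on TCE arrays and -0.18 ± 0.57 on oil arrays after 14 days (exact permutation p = 0.343). Of the 5, 1 fell, Alas2 (-0.98 ± 0.20), when 8.48% of all mouse probe sets were called lower. After 1 dose the markers averaged -0.23 ± 0.29 on TCE arrays and 0.04 ± 0.24 on oil arrays (exact permutation p = 0.171). Then 1 of the 5 fell as well, beside 4.14% of all mouse probe sets called lower. The part of red cells in the Prdx2 values was not tested.

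In rat liver no member passed at either schedule. After 1 dose 0 of 13 probe sets passed, against 1.72% of all rat probe sets, and after 14 days 0 of 13, against 2.81% (limma, adjusted p under 0.05). At an unadjusted p under 0.05 the counts were 2 and 3, and the share of all rat probe sets at that level was not computed. Of the groups, 0 of 13 were apart after 1 dose, against 12.5%, and 2 of 13 were apart after 14 days, both with TCE above oil, against 7.52% of all probe sets. The members' median change was -0.07 after 1 dose and 0.19 after 14 days, beside 0.14 and 0.04 for all rat probe sets.

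**Figure D3:**
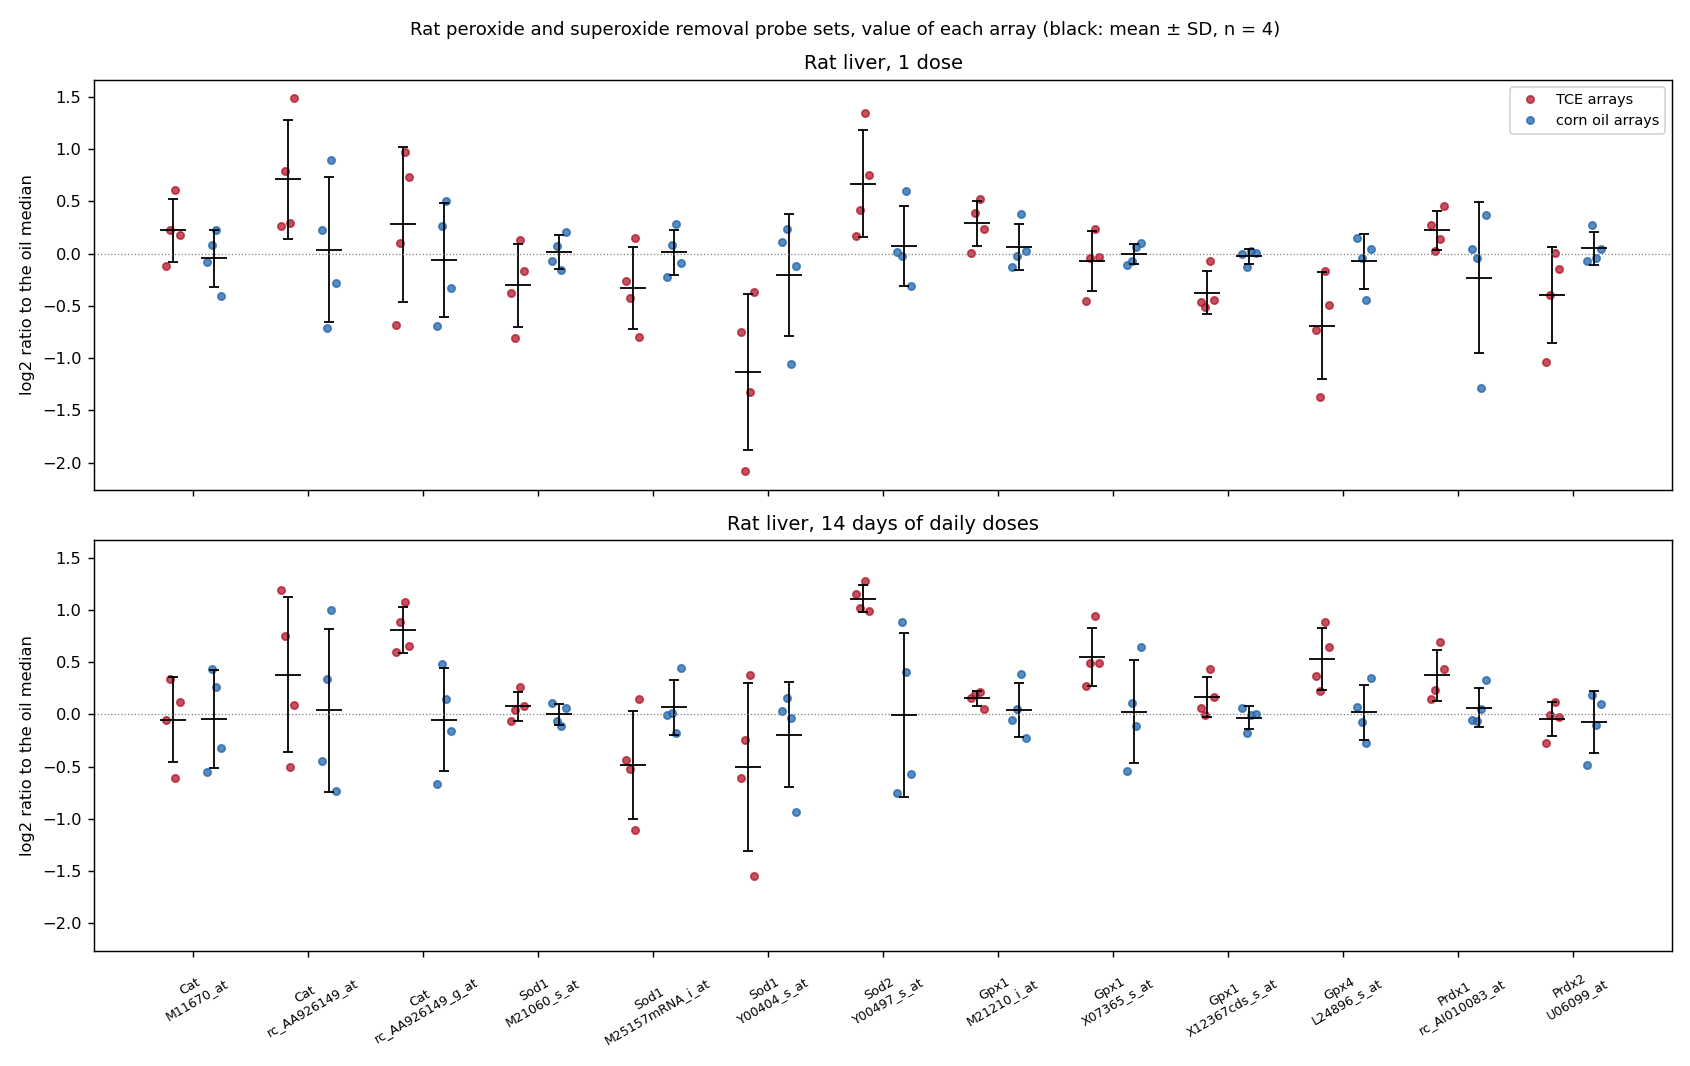
Log2 ratio of every array for the 13 rat probe sets, after 1 dose (top) and 14 days (bottom), with TCE arrays in red left of oil arrays in blue and black bars for mean ± SD (n = 4). After 14 days the Sod2 TCE arrays lie close together between 0.99 and 1.28, above oil arrays that range from -0.76 to 0.88.

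Sod2 had the smallest p among the rat members. Y00497_s_at read 1.15, 1.02, 1.28 and 0.99 on TCE arrays after 14 days, against -0.76, 0.88, 0.41 and -0.57 on oil arrays. The groups did not overlap, with a narrow TCE group (SD 0.13) beside a wide oil group (SD 0.78). The change was 1.12 ± 0.35 (fold 2.17; 95% interval 0.38 to 1.86; limma adjusted p = 0.0920). Of the 8 fits that each left out 1 array of this comparison, it passed in 1, the fit without the highest oil array, the second (1.41, adjusted p = 0.0307). After 1 dose the TCE arrays read 0.17, 0.41, 1.35 and 0.75, against 0.02, -0.02, 0.60 and -0.31 on oil arrays, and the change was 0.60 ± 0.35 (adjusted p = 0.367).

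Rat Sod1 was read by 3 probe sets. After 1 dose their changes were -0.32 ± 0.19 (M21060_s_at), -0.34 ± 0.26 (M25157mRNA_i_at) and -0.92 ± 0.45 (Y00404_s_at), all below 0 and none past the test (limma adjusted p between 0.276 and 0.502). After 14 days they were 0.08 ± 0.19, -0.55 ± 0.26 and -0.31 ± 0.45 in the same order, so the probe sets no longer shared a direction. The spread of Y00404_s_at was wide, from -2.08 to -0.37 on TCE arrays and from -1.06 to 0.24 on oil arrays after 1 dose.

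Rat catalase likewise depended on the probe set. The most even one, M11670_at, read -0.05, 0.34, -0.61 and 0.12 on TCE arrays after 14 days, against -0.55, 0.43, 0.26 and -0.32 on oil arrays, a change of -0.01 ± 0.26 (95% interval -0.57 to 0.56). On rc_AA926149_g_at the TCE arrays read 0.60, 0.88, 1.08 and 0.65, all above the oil arrays at -0.67, 0.49, 0.14 and -0.16, and the change was 0.85 ± 0.36 (limma adjusted p = 0.212). On rc_AA926149_at, which by its name comes from the same sequence, it was 0.34 ± 0.47. After 1 dose the 3 changes were 0.27 ± 0.26, 0.34 ± 0.36 and 0.67 ± 0.47 in that order, all above 0 and none past the test.

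Rat Gpx4 and 2 of the 3 rat Gpx1 probe sets had a change below 0 after 1 dose and above 0 after 14 days, without a call. Gpx4 L24896_s_at read -0.73, -1.37, -0.16 and -0.49 on TCE arrays after 1 dose, against 0.15, -0.05, -0.44 and 0.04 on oil arrays (change -0.62 ± 0.25, limma adjusted p = 0.202). After 14 days it read 0.37, 0.23, 0.89 and 0.64 on TCE arrays, against 0.07, -0.07, -0.27 and 0.35 on oil arrays (change 0.51 ± 0.25, adjusted p = 0.287). The groups overlapped at both schedules. The difference between the schedules' changes was 1.13 ± 0.36 (95% interval 0.37 to 1.89; limma adjusted p = 0.413). Of the 3 Gpx1 probe sets, X12367cds_s_at showed a change of -0.35 ± 0.15 after 1 dose and 0.19 ± 0.15 after 14 days (schedule difference 0.54 ± 0.22, adjusted p = 0.488), X07365_s_at -0.07 ± 0.24 and 0.52 ± 0.24, and M21210_i_at 0.23 ± 0.18 and 0.11 ± 0.18.

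The rat peroxiredoxins did not pass. Prdx1, a cytosolic peroxidase and a target of the oxidative stress factor Nrf2, read 0.28, 0.02, 0.14 and 0.45 on TCE arrays after 1 dose, against 0.04, -0.05, -1.28 and 0.37 on oil arrays (change 0.45 ± 0.28). The third oil array stood apart at -1.28, and without it the change was 0.10. After 14 days the change was 0.31 ± 0.28 (95% interval -0.30 to 0.92). Prdx2 U06099_at changed by -0.44 ± 0.22 after 1 dose and 0.03 ± 0.22 after 14 days (limma adjusted p = 0.291 and 0.962).

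Between the schedules, 0 of 9 mouse and 0 of 13 rat probe sets differed by limma's test of the difference itself, when 0.877% of all mouse probe sets and 0 of 8740 rat probe sets did. At an unadjusted p under 0.05 that test gave 1 mouse probe set (Gpx1) and 2 rat probe sets (Gpx4 and Gpx1 X12367cds_s_at). The shares of all probe sets at that level were not computed, so these counts are a description only.

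The species were compared gene by gene, as the mouse change minus the rat change, over 3056 genes on both arrays, with the probe set of smallest within-group SD for each gene. Of 6 members, 0 differed after 1 dose, when 4.22% of all genes did, and 1 after 14 days, when 10.5% did (8.51% with the mouse change lower). That gene was Sod2, at -0.12 ± 0.18 in mouse and 1.12 ± 0.35 in rat, a difference of -1.24 ± 0.39 (95% interval -2.04 to -0.43; limma adjusted p = 0.0417). The median difference over all genes was -0.23 after 14 days, and with arrays centred on their medians the Sod2 difference was -1.04 (adjusted p = 0.0903). Of 16 fits that each left out 1 array, 5 kept the call, with adjusted p between 0.00656 and 0.107.

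The other 5 genes did not differ past the threshold after 14 days, and their intervals show what remains possible. The Cat difference was -0.61 (95% interval -1.24 to 0.03), Gpx1 0.49 (-0.003 to 0.97), Gpx4 -0.43 (-1.02 to 0.15), Prdx2 -0.11 (-0.65 to 0.43) and Sod1 0.09 (-0.46 to 0.65). After 1 dose the Cat difference was -0.77 ± 0.31 (adjusted p = 0.150) and the Sod1 difference 0.70 ± 0.27 (adjusted p = 0.133).

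**Figure D4:**
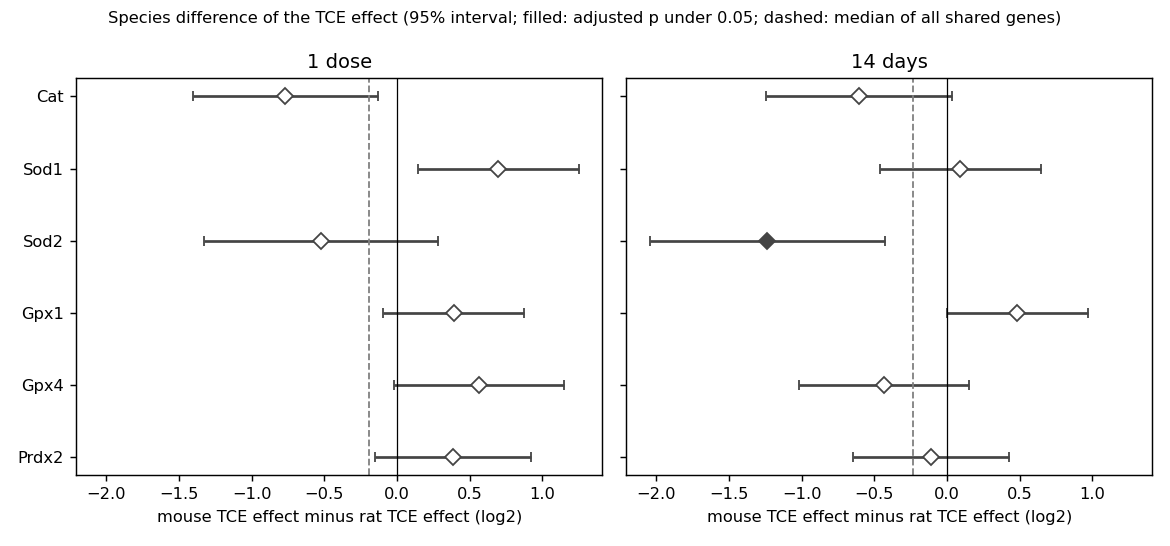
Mouse change minus rat change (log2) for the 6 genes measured in both species, after 1 dose (left) and 14 days (right), with 95% intervals. Sod2 after 14 days, at -1.24, is the only filled symbol (adjusted p under 0.05), and the dashed lines mark the median over all 3056 genes (-0.19 and -0.23).

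The remaining enzymes of the same families gave no call. Of Sod3 and the other glutathione peroxidases and peroxiredoxins, 7 genes were measured in mouse and 8 in rat, and 0 passed in any of the 4 comparisons. After 1 dose and 14 days, 8.3% and 10.7% of all mouse probe sets passed, and 1.72% and 2.81% of all rat probe sets. The smallest adjusted p was that of Prdx6, a peroxiredoxin that also acts on phospholipids, in rats after 14 days (0.82 ± 0.23, limma adjusted p = 0.0691). Next was the extracellular dismutase Sod3 in rats after 1 dose (-0.65 ± 0.20, adjusted p = 0.104).

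The peroxidases draw on enzymes that supply glutathione and thioredoxin. In mice after 1 dose 2 of 13 rose, beside 4.16% of all mouse probe sets called higher. They were Gsr (0.85 ± 0.19), which regenerates reduced glutathione, and Txn2 (0.55 ± 0.15), the mitochondrial thioredoxin, and after 14 days 0 of 13 passed. In rat 1 of 8 rose at each schedule, beside 1.21% of all rat probe sets after 1 dose and 2.16% after 14 days. In both cases it was Gclm, the modifier subunit of the enzyme that makes the glutathione precursor (1.37 ± 0.33 after 1 dose and 1.68 ± 0.33 after 14 days; limma adjusted p = 0.0499 and 0.0143). Whether these shares differ from those of the peroxidases was not tested.

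Gpx1 and Gpx4 carry selenocysteine, so genes of selenoproteins and of selenocysteine synthesis were set beside them. In mice after 14 days 3 of 11 fell and none rose, beside 8.48% of all mouse probe sets called lower and 2.24% called higher. They were Selenok (-1.06 ± 0.15), an endoplasmic reticulum selenoprotein, and Sephs2 (-1.05 ± 0.29) and Sepsecs (-0.97 ± 0.24), enzymes that make selenocysteine. After 1 dose, when 4.14% of all mouse probe sets were called lower and 4.16% higher, Selenok fell (-0.53 ± 0.15) and Selenot rose (0.96 ± 0.23). In rat 0 of 4 passed at either schedule, beside 1.72% of all rat probe sets after 1 dose and 2.81% after 14 days.

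Among other oxidases that form hydrogen peroxide, 1 of 7 mouse genes fell at each schedule. Of all mouse probe sets, 4.14% were called lower after 1 dose and 8.48% after 14 days. The genes were Pipox, the peroxisomal sarcosine oxidase, after 1 dose (-0.74 ± 0.13) and Xdh, the xanthine oxidoreductase, after 14 days (-0.92 ± 0.21). In rat 0 of 8 passed, beside 1.72% of all rat probe sets after 1 dose and 2.81% after 14 days. Of the genes for import into the peroxisome, which catalase needs to reach its site, 1 of 7 mouse genes rose after 1 dose (Pex6, 0.89 ± 0.19). Of all mouse probe sets, 4.16% were called higher then. None of the import genes rose in mice after 14 days, when 2.24% of all mouse probe sets were called higher. In rat 0 of 6 import genes passed, beside 1.72% of all rat probe sets after 1 dose and 2.81% after 14 days.

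Over the 16 mouse arrays, the genes with the pattern most like Cat 160479_at were B2m (Pearson r = 0.950), Rdh7 (0.950), Ccni (0.940), Fgg (0.939) and Fgb (0.937) of 8249 genes. Rdh7 is a retinol dehydrogenase and Fgg and Fgb are fibrinogen chains made by hepatocytes. Among the members, r with Cat was -0.61 for Gpx1, -0.22 for Sod1 and 0.28 for Sod2. Over the 16 rat arrays the genes most like Cat M11670_at were Cd53 (0.959), Adk (0.850), Tfpi (0.839), Ube2g1 (0.83) and Snrk (0.817) of 4735. These values describe arrays that share treatment groups and RNA quality, and no gene was among the 5 in both species.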

How the data were processed

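Liver RNA was hybridised to 1-colour Affymetrix arrays, 16 per species, and MAS5, which makes signals from such arrays, is named in the submitters' processing notes, with its version not given in the sources used here. The deposited values are ratios: the authors' tables have a median of 1 over the 4 oil arrays of each species and schedule, within 0.0005, as found from the values. Neither that division nor any scaling of arrays is described in the sources used here.

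Control probe sets (66 in mouse, 59 in rat) were left out. The log2 ratios of the 16 arrays of each species entered 1 limma fit (version 3.58.1, R 4.3.3, lmFit then eBayes) with 4 group means, and the species difference came from all 32 arrays and 3056 shared symbols. There, and in gene lists, a gene was read from its probe set of lowest SD within groups. P-values were two-sided and adjusted by Benjamini-Hochberg over all probe sets or genes, with a threshold of 0.05. Values were neither filtered nor offset. The fit was tested on simulated data in which the changes were set. Within-array differences and array measures were compared with exact permutation tests (scipy 1.17.1).

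No 2 arrays of a group shared more than 0.225% of their values, and each array was kept as its own sample. Every probe set of the members is given. From each other list up to 4 genes past the threshold are named per comparison, or up to 2 of smallest p where none passed, and for Cat the 5 genes of most similar pattern. The members, the lists and these tests were chosen with earlier results of these data known. The alternatives, described after the report, changed array scaling, the log offset, the arrays in the fit, the replicate block, RNA quality, missing values, array weights, the probe sets of a gene and each array in turn. Of these, the beta-actin covariate, the other Cat probe sets and the settings for within-array differences and for the peroxisomal list were added after seeing the data.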

Additional observations from a re-analysis of the deposited data

Results flagged for a closer look

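In 4 of 88 groups of 4 arrays, a member's highest or lowest array stood apart from the other 3 by Dixon's criterion at the 95% level, which chance meets in about 1 of 20 groups. The fourth mouse TCE array after 1 dose read -0.22 for Gpx4 94897_at, below the rest of its group. In mice after 14 days, the fourth oil array read 1.02 for Prdx2 100330_at and the first oil array 0.64 for Sod2 96042_at, each above the rest. The third rat TCE array after 1 dose read -0.071 for Gpx1 X12367cds_s_at, above the other TCE arrays.

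Of 34 tested differences between schedules or species, 1 passed: the Sod2 change after 14 days was lower in mouse than in rat, by a difference of -1.24. Without the first mouse oil array, which stood apart for this gene, the difference was -1.07 (limma adjusted p = 0.0909).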

How the results depend on the processing

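None of the member calls reversed. Of 9 mouse probe sets after 14 days, 1 was called higher (Gpx1) and 1 lower (Cat), and both counts were 0 with quantile normalization, with only the arrays compared, with arrays of Gapdh difference above 1 left out and with array weights; the lower count was also 0 with arrays centred on their medians. The species difference after 14 days (1 called lower, Sod2) was 0 with quantile normalization, centring, only the arrays compared and those arrays left out. With array weights 1 gene was called higher in the species difference after 1 dose (Sod1, 0.78). Leaving out 1 array at a time gave 0 to 1 higher and 0 to 1 lower calls in mice after 14 days, 0 to 1 higher in rats after 14 days and 0 to 1 lower in the species difference after 14 days. Cat kept its call in 2 of 8 such fits and Gpx1 in 1 of 8. The 3 calls held with the Gapdh difference as a covariate (Cat -0.71, Gpx1 0.86, Sod2 -1.21) and with that of beta-actin (-0.83, 1.02 and -1.24). The causes of the losses were not tested. Leaving out arrays of Gapdh difference above 1 kept only the second mouse TCE array after 1 dose and only the first after 14 days. Over the settings other than leaving out 1 array, the count of peroxisomal genes called higher was 2 to 10 in mice after 1 dose (10 as reported), 3 to 11 in mice after 14 days (9), 0 to 3 in rats after 1 dose (0) and 1 to 6 in rats after 14 days (5). Leaving out 1 array gave 7 to 9, 6 to 9, 0 and 3 to 5 in the same order. The number of mouse probe sets called after 14 days was 278 higher and 1053 lower with the deposited scaling, 6 and 1 with quantile normalization, and 475 and 506 with centring.

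With the replicate block both mouse calls after 14 days and the Sod2 species call were lost, so that each count was 0 (Cat -0.61, adjusted p = 0.136; Gpx1 0.68, adjusted p = 0.120; Sod2 -1.24, adjusted p = 0.0573). Same-numbered TCE and oil arrays correlated between -0.17 and 0.08, and the labels do not say that a number pairs samples. Such correlations cannot show whether same-numbered samples were handled together.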
